A study of Arabidopsis thaliana with 8 samples.

Results

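Gibberellin is a plant growth hormone that acts by removing repressors. The hormone binds GID1 receptors, the receptor then holds a DELLA protein, and an F-box protein brings the DELLA protein to an SCF ubiquitin ligase, which marks it for breakdown by the proteasome. SLY1 (SLEEPY1, locus AT4G24210) is the main F-box protein of this step in Arabidopsis, and sly1 mutants hold on to DELLA protein and are dwarfed. SNE (SNEEZY, also named SLEEPY2, locus AT5G48170) is its homologue and can replace it when overexpressed. SPY (SPINDLY, locus AT3G11540) acts in the opposite sense on the pathway: it attaches O-linked fucose to DELLA proteins, and loss of SPY makes plants respond as if they held more gibberellin.

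These 3 genes were chosen by name as regulators that act after the receptor, out of 22746 probe sets on Affymetrix ATH1 arrays that were not array controls. Each gene was read by 1 probe set annotated to it alone, 254160_at for SLY1, 248741_at for SNE and 259259_at for SPY. Transcripts were measured in shoots of 8-day-old Arabidopsis thaliana seedlings, all of the mutant ga1-3 in the Ler background, which makes very little gibberellin. They had been raised on vertical plates with 2% sucrose, at 22 °C under constant light. In the GA4 group (4 arrays) they had been misted with 2 µM GA4, a bioactive gibberellin, and in the water group (4 arrays) with water, and in both the shoots were cut off 1 h later. Both groups thus carried the ga1-3 mutation, and no wild-type or untreated shoots were among these arrays. The study looked for genes that respond early to gibberellin, and the comparison here is of the regulators' own transcripts in GA4 against water. The replicates were numbered 1 to 4 in each group, and the labels call them biological.

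The shoot marker RCA (Rubisco activase) had signals of 16465 to 30509 on the GA4 arrays and 17008 to 22309 on the water arrays, and it was the only one of 8 shoot markers with a probe set annotated to it alone. The root hair markers EXPA7 and EXPA18, the 2 of 8 root markers with a named probe set, were at 75.1 to 126.4 and 23.8 to 126.9 in GA4 and at 52.1 to 108.8 and 11.8 to 76.1 in water, and their mean signals lay below the level needed for testing. The shoot apex marker CLV3 was at 4.55 to 10.6 in GA4 and 4.17 to 11.8 in water. Replicates 1 and 2 differed from replicates 3 and 4: 41.4% of the 13648 tested probe sets passed a limma test of these sets, fitted together with treatment. The split was known from earlier results of these same data, so the test is no independent evidence for it. For actin the ratio of 3′ to 5′ signal, which is higher where RNA is degraded or incompletely copied, was 6.63 and 4.87 on GA4 and 6.88 and 3.06 on water arrays of replicates 1 and 2. On replicates 3 and 4 it was 2.14 and 2.03 on GA4 and 2.06 and 2.09 on water arrays. Results are therefore also given within each of these sets.

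SLY1 gave a lower signal on every GA4 array than on any water array. Its signals (MAS5 units, linear scale) were 293, 263, 249.9 and 366 in GA4 replicates 1 to 4 and 390, 371, 638 and 463 in water replicates 1 to 4. The groups did not overlap, but the brightest GA4 array (replicate 4) and the dimmest water array (replicate 2) were only 4.95 units apart. The mean was 293 ± 52.1 in GA4 and 466 ± 121 in water (SD, n = 4 each). Groups that did not overlap, with GA4 lower, were found for 190 of the 13648 tested probe sets, or 1.39%. Of those 190, 65 had a larger difference on the log2 scale than SLY1. In whole shoots, fewer cells of a type and less RNA per cell cannot be told apart.

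**Figure D1:**
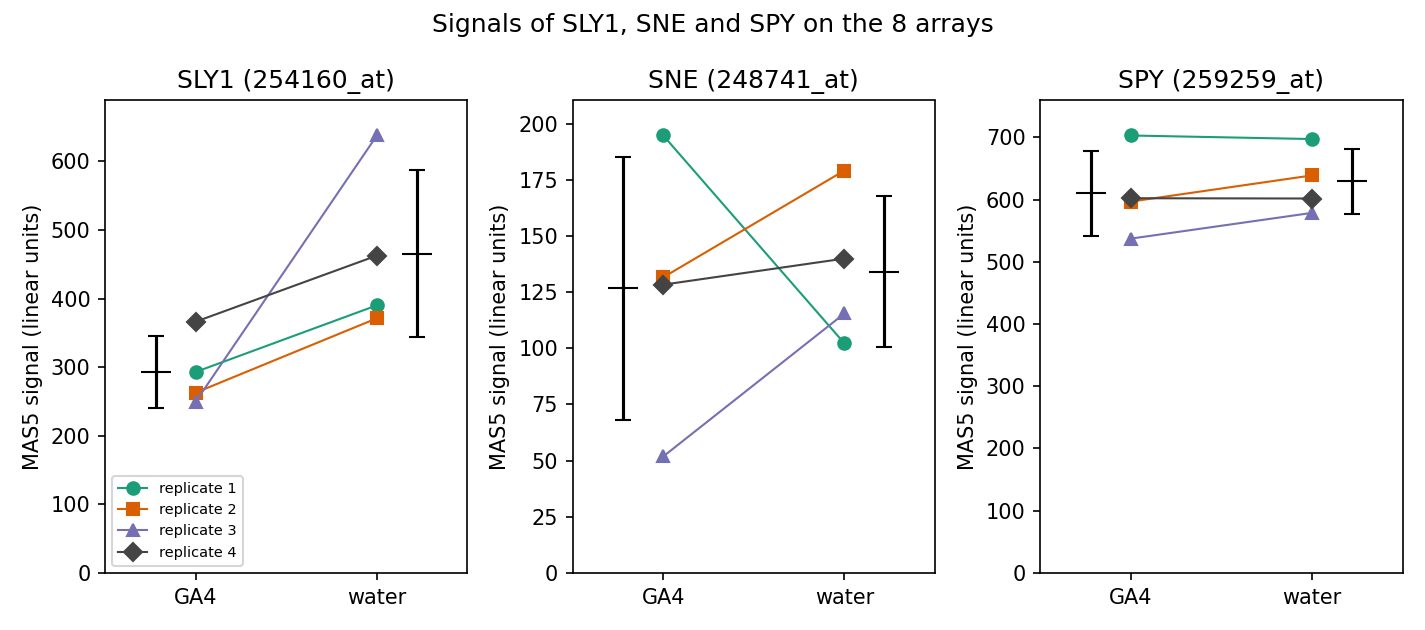
MAS5 signals (y axis, linear units from 0, a separate scale in each panel) of SLY1, SNE and SPY in GA4 and water shoots (x axis), with 1 point per array and lines joining arrays of the same replicate number. Black bars beside the points are means ± SD (n = 4). For SLY1 the 4 GA4 points lie at 249.9 to 366 and the 4 water points at 371 to 638. For SNE the lines cross, and for SPY they are nearly level.

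The SLY1 difference, GA4 minus water, was −0.65 on the log2 scale (SE 0.22, 95% interval −1.14 to −0.16), a change of −36.3% in the geometric mean. It did not pass limma's test across all tested probe sets (unadjusted p = 0.0143, adjusted p = 1.00), in which 2 of 13648 probe sets, or 0.0147%, passed. With the replicate number as a block the difference had an SE of 0.18 and limma's adjusted p was 0.212 (unadjusted p = 0.00438), while 40 probe sets, or 0.293%, passed. None of SLY1, SNE and SPY passed in either fit (0 of 3), and SLY1 alone was at an unadjusted p under 0.05, in both fits. At that level 1.77% of the tested probe sets were lower in GA4 without the block and 6.63% with it. Taken as a single value, SLY1 gave a 2-sided exact permutation p of 0.0286 over the 8 arrays, the smallest that 4 arrays against 4 allow. The same-numbered pairs allow no p below 0.125 in an exact sign-flip test, which is the value SLY1 had.

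By pair, the SLY1 difference was −0.41 in pair 1, −0.50 in pair 2, −1.35 in pair 3 and −0.34 in pair 4 (log2, GA4 minus water). It was thus negative in 4 of 4 pairs, as for 10.0% of the tested probe sets. Groups that do not overlap must give this, and also the exact permutation and sign-flip p-values above. These are therefore not separate findings. Pair 3 stood apart: its water array had the highest SLY1 signal of the 8 and its GA4 array the lowest. In that pair 0.264% of the tested probe sets had a more negative difference than SLY1, against 18.0%, 12.5% and 9.28% in pairs 1, 2 and 4. Without pair 3 the mean SLY1 difference was −0.42 (SE 0.18 with the block, limma unadjusted p = 0.0366 and adjusted p = 0.368). The size of the difference therefore moved by over 1.5 times with 1 pair.

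SLY1 was lower in GA4 in both sets of replicates, and within each set both GA4 arrays lay below both water arrays. Every split of the arrays had to show this, since the groups did not overlap, so it is no further evidence. The mean difference was −0.46 on replicates 1 and 2 and −0.84 on replicates 3 and 4. The difference between these 2 values was −0.39 (SE 0.34) and did not pass limma's interaction test (adjusted p = 0.827). In that test 0 of 13648 probe sets, or 0.0%, passed, and 957 were at an unadjusted p under 0.05. The 3′ to 5′ ratio of GAPDH was higher on the GA4 array in 4 of 4 pairs (0.982 to 1.98 in GA4, 0.897 to 1.41 in water), and that of actin in 2 of 4. The part of RNA quality in the SLY1 difference was not tested.

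SNE, the other F-box protein, varied widely and lay close to the signal level needed for testing. Its signals were 194.8, 131.6, 51.9 and 128.4 in GA4 replicates 1 to 4 and 102.2, 179.2, 115.5 and 140.0 in water replicates 1 to 4. The highest and the lowest of the 8 values were both from GA4 arrays, so the groups overlapped fully. Testing required a mean signal over all arrays of about 110 units (6.78 on the log2 scale). SNE passed this with a mean log2 signal of 6.94. GA4 replicate 3 and water replicate 1 lay below that level. No detection calls were used, so these values cannot be told from background. The lower quartile of all signals on an array was higher on the GA4 array in 4 of 4 pairs (42.7 to 77.2 in GA4, 39.5 to 52.1 in water), and its part in the SNE values was not tested.

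The SNE difference was −0.20 (SE 0.40, 95% interval −1.08 to 0.69, limma adjusted p = 1.00), with an exact permutation p of 0.771. In percent, the interval runs from −52.8% to 60.9%, so these arrays do not resolve changes within that range. By pair it was 0.93, −0.44, −1.16 and −0.12 in pairs 1 to 4. The sign therefore differed among pairs: GA4 was the brighter array in pair 1 and the dimmer in the other 3. The mean was 0.24 on replicates 1 and 2 and −0.64 on replicates 3 and 4 (interaction −0.88, SE 0.65, limma adjusted p = 0.795). Without GA4 replicate 3, which had the lowest value, the SNE difference was 0.18. The spread of SNE within groups, a residual SD of 0.62 log2 units, was larger than that of 87.3% of the tested probe sets. These were not matched to SNE in signal, and the part of its low signal in this spread was not tested.

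SPY, the O-fucosyltransferase, had almost the same signal in both treatments. Its signals were 703, 597, 537 and 602 in GA4 replicates 1 to 4 and 697, 639, 579 and 602 in water replicates 1 to 4. The groups overlapped, and in each of them replicate 1 was the brightest and replicate 3 the dimmest. The mean was 609.9 ± 68.8 in GA4 and 629 ± 51.8 in water (SD, n = 4 each). The difference was −0.05 (SE 0.16, 95% interval −0.40 to 0.30, limma adjusted p = 1.00, exact permutation p = 0.686). In percent, the interval runs from −24.1% to 23.3%.

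Set against the tested probe sets, which were not matched to it in signal, SPY was among the steadiest transcripts. By pair its difference was 0.012, −0.10, −0.11 and 0.0011 in pairs 1 to 4, and it was negative in 2 of 4. Its residual SD within groups was 0.14 log2 units, and 4.40% of the tested probe sets had a smaller one. With the replicate number as a block the residual SD was 0.045, and 1.44% had a smaller one. The interval was then −0.31 to 0.21, or from −19.1% to 15.7%. The SPY difference was −0.04 on replicates 1 and 2 and −0.05 on replicates 3 and 4.

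**Figure D2:**
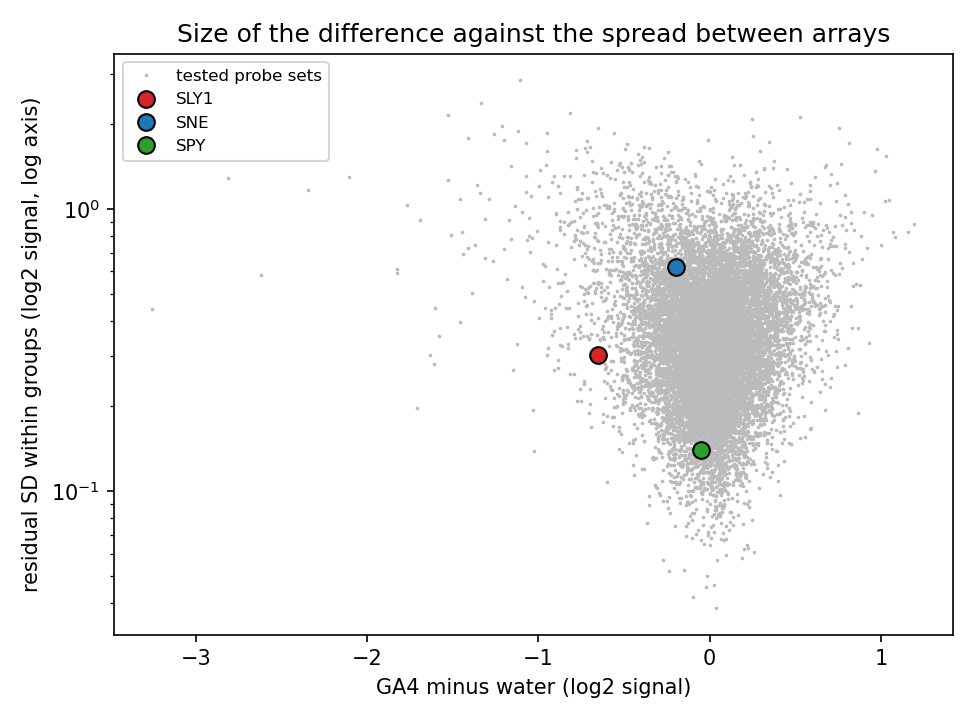
Each grey point is 1 of the 13648 tested probe sets, placed by its GA4 minus water difference (x axis, log2 signal) and its residual SD within groups (y axis, log2 signal, log axis), with SLY1, SNE and SPY in colour. SLY1 lies at −0.65 on the left edge of the cloud at its spread, SNE at −0.20 high up with an SD of 0.62, and SPY at −0.05 low down with an SD of 0.14.

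SLY1 had the most negative difference of the 3 genes, and 1.80% of the tested probe sets were lower still, against 17.9% for SNE and 39.8% for SPY. Whether GA4 moved the genes unequally was tested on the log2 ratio of their signals within each array, in 3 comparisons. The SLY1 to SPY ratio was lower in GA4 by a difference of −0.60, in 4 of 4 pairs (exact permutation p = 0.0857, adjusted p = 0.257 over the 3), and by −0.39 without pair 3. The SLY1 to SNE ratio differed by −0.45, also negative in 4 of 4 pairs (exact permutation p = 0.371, adjusted p = 0.557), and by −0.15 without pair 1. The SNE to SPY ratio differed by −0.15 (exact permutation p = 0.743, adjusted p = 0.743), and changed sign without pair 3, to 0.15. A difference in response between the 3 genes was therefore not shown at this number of arrays, and none of these p-values shows that they respond alike. Adjusted over 3, a single comparison at the smallest possible exact permutation p, 0.0286, could not pass the threshold of 0.05.

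The 3 genes were also compared between the sets of replicates, a comparison that 41.4% of the tested probe sets passed. On replicates 3 and 4 relative to replicates 1 and 2, SLY1 was at 0.32 (SE 0.18, limma adjusted p = 0.164), SNE at −0.53 (SE 0.33, adjusted p = 0.216) and SPY at −0.18 (SE 0.13, adjusted p = 0.273). None of the 3 passed with the deposited scaling. After quantile normalization SLY1 passed, at 0.51 (limma adjusted p = 0.0343), while SNE was at −0.15 (adjusted p = 0.739) and SPY at −0.10 (adjusted p = 0.584).

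The rest of the pathway was read from lists of 64 genes for receptors, DELLA proteins, F-box proteins, sugar transferases, SCF subunits, partners of SPY and DELLA proteins, and enzymes of gibberellin synthesis and inactivation. A probe set annotated to the gene alone was found for 11 of them, and 8 were bright enough to be tested, SLY1, SNE and SPY included. None of the 8 passed limma's test without the block. In that fit SLY1 and 2 others, GID1A and GID1B, were at an unadjusted p under 0.05, as were 361 of all 13648 tested probe sets. With the block 2 of 8 passed, GID1A and GID1B, both lower in GA4, where 0.293% of all tested probe sets passed. The median difference of the 8 was −0.23, against 0.01 over all tested probe sets. Since the 8 include SLY1, SNE and SPY and the lists were chosen with earlier results known, this median describes these 8 genes only. None of the 5 DELLA genes, the 10 synthesis genes (GA1, the gene disrupted in ga1-3, among them) or the 9 inactivation genes had a named probe set. The annotation used listed no gene for 8730 of the 22746 probe sets, so this does not show that the arrays lack probes for them. GID1C, the remaining receptor gene, RBX1B, a RING subunit of SCF ligases, and UFO, a floral F-box protein, were too dim to be tested.

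Upstream of SLY1, both tested receptor genes had more negative differences than SLY1. That of GID1C, too dim to be tested, was 0.048, with GA4 lower in 2 of 4 pairs. The GID1A difference was −1.61 (SE 0.20 with the block, limma adjusted p = 0.00929) and that of GID1B was −1.44 (SE 0.24, adjusted p = 0.0419). Without the block neither passed (limma adjusted p = 0.0856 for GID1A, and higher for GID1B). On replicates 1 and 2 GID1A was at −1.72 and GID1B at −0.87, and on replicates 3 and 4 they were at −1.49 and −2.01. Pair 3 held the lowest difference for SLY1, SNE, GID1A and GID1B, at −1.35, −1.16, −2.02 and −2.25. The same held for SPY (−0.11) and GI (0.064), while SEC and TCP15 were lowest in pair 1. Over all tested probe sets, pair 3 held the lowest of the 4 differences for 22.6%. The SLY1 to GID1A ratio was higher in GA4 by 0.96 in 4 of 4 pairs (exact permutation p = 0.0286, adjusted p = 0.171) and the SLY1 to GID1B ratio by 0.79 in 4 of 4 (exact permutation p = 0.0857, adjusted p = 0.171). These comparisons, and that of SPY with SEC, were chosen after the values were seen, and their p-values were adjusted over all 6 comparisons of this kind. After this adjustment a single comparison at the smallest possible exact p, 0.0286, could not pass the threshold of 0.05.

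SEC (SECRET AGENT), the related enzyme that attaches O-linked N-acetylglucosamine to DELLA proteins, varied more than SPY among the water arrays and less among the GA4 arrays (SD of log2 signal 0.093 in GA4 and 0.37 in water for SEC, 0.16 in GA4 and 0.12 in water for SPY). Its signals were 622, 666, 597 and 688 in GA4 replicates 1 to 4 and 1051, 862, 677 and 587 in water replicates 1 to 4. Water replicates 1 and 2 were above all GA4 arrays, water replicate 3 fell within the GA4 range, and water replicate 4 was below all GA4 arrays. The SEC difference was −0.27 (SE 0.20, limma adjusted p = 1.00), with −0.56 on replicates 1 and 2 and 0.02 on replicates 3 and 4. The SPY to SEC ratio differed by 0.22 between GA4 and water (exact permutation p = 0.200, adjusted p = 0.300).

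Both tested partners had differences above 0 in every pair. TCP15, a transcription factor of growth and cytokinin responses that binds SPY, was at 0.42 (SE 0.21, limma adjusted p = 1.00), with 0.20, 0.39, 0.77 and 0.35 in pairs 1 to 4. With the block its SE was 0.15 and limma's adjusted p 0.320. GI (GIGANTEA), a clock protein that binds SPY, was at 0.13 (SE 0.15, limma adjusted p = 1.00). GI signals were 691, 660.0, 550.4 and 659 in GA4 replicates 1 to 4 and 575, 620.2, 526 and 613 in water replicates 1 to 4. GA4 was higher in 4 of 4 pairs for 9.64% of the tested probe sets.

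**Figure D3:**
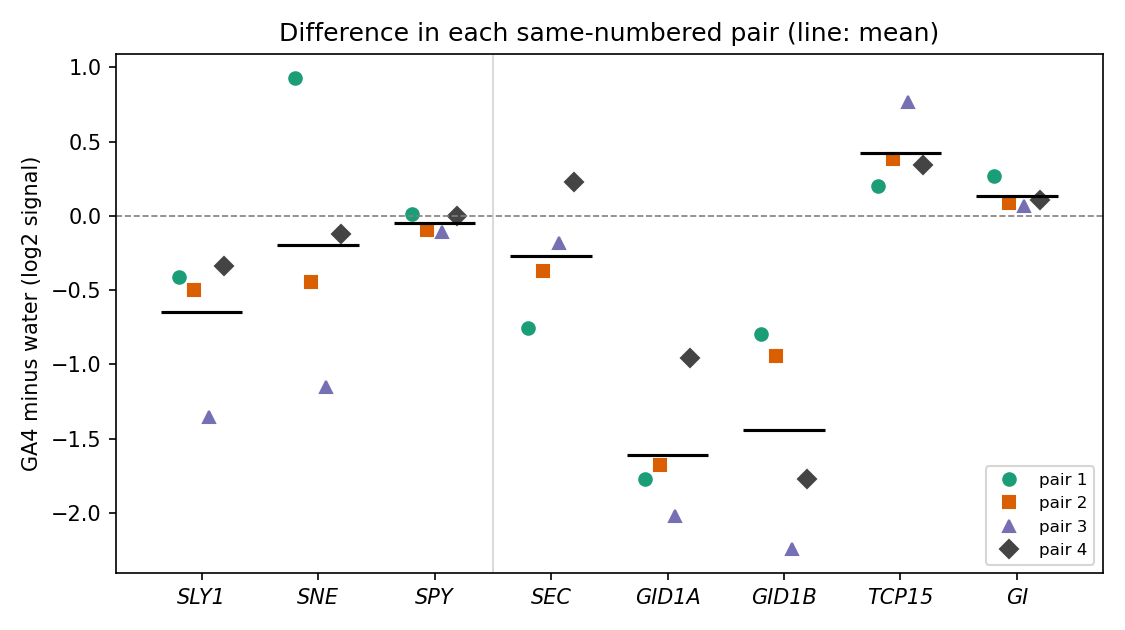
GA4 minus water (y axis, log2 signal) in each same-numbered pair for SLY1, SNE and SPY and, right of the grey line, for the 5 other tested pathway genes, with black lines at the means. SLY1 is below 0 in all 4 pairs with pair 3 lowest at −1.35, SNE spans 0.93 to −1.16, SPY stays between −0.11 and 0.012, and GID1A and GID1B lie lowest.

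The genes whose log2 signals followed each regulator most closely were sought among the 7315 tested probe sets with 1 gene. For SLY1 these were AT1G71970 (Pearson r = 0.954 over 8 arrays), the receptor gene GID1B (r = 0.918) and AT1G26740 (r = 0.898). After the mean of each replicate set had been subtracted they were AT1G26740 (r = 0.983), SOL1 (r = 0.947) and AT1G71970 (r = 0.947). AT1G71970 had a difference of −0.81 between GA4 and water (limma adjusted p = 0.0725 with the block), AT1G26740 one of −0.25 and SOL1 one of −0.50. For SNE they were AT2G40770 (r = 0.948), AT5G17410 (r = 0.943) and AT5G08440 (r = 0.942), and after subtraction AT1G15490 (r = 0.989), AT5G59350 (r = 0.950) and AT2G40770 (r = 0.942). For SPY they were AT5G27990 (r = 0.987), the chloroplast ribosomal protein gene rpl14 (r = 0.974) and AT5G16070 (r = 0.965), and after subtraction AT1G04780 (r = 0.980), AT5G27990 (r = 0.972) and AT5G47600 (r = 0.969). These values describe 8 arrays that share treatments and replicate sets, and each was picked as the highest of 7315, so their size supports no relation. Among the regulators themselves, r was 0.64 for SNE and SPY, 0.22 for SLY1 and SNE and 0.0083 for SLY1 and SPY.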

How the data were processed

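The deposited table gives a linear signal intensity for each probe set on each of the 8 arrays. The submitters' processing notes name MAS5, without a version. The trimmed means (2% off each end) were 500.04 to 500.05, so nothing was rescaled. Signals under 1 were set to 1 and log2 was taken. Array controls (64) were left out, and of the other 22746 probe sets the brightest 60% by mean log2 signal (13648) were tested. MAS5 signals of different probe sets have no common scale, so genes were not compared by level, beyond this filter. Precision is limited by the number of arrays.

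Platform annotation, updated through the TAIR10.1 gene table, paired 13513 probe sets with 1 gene (13436 matched to a locus), 503 with several and 8730 with none listed. It names no genome build, so no positions are printed.

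The GA4 and water arrays were compared with limma 3.58.1 in R 4.3.3 (lmFit, eBayes with trend, 2-sided, Benjamini-Hochberg over 13648, threshold 0.05), tested on simulated data. Exact permutation tests used SciPy 1.17.1. A second fit took the replicate number as a block. Deviations from the group means correlated between same-numbered arrays at 0.616 to 0.685 in 4 of 4 pairs, above the 0.1 required. The numbers, which come from the labels, were therefore treated as pairs in the second fit, the differences by pair and the sign-flip test. The first fit and the exact permutation tests did not use the pairs. Arrays of different number also correlated within replicates 1 and 2 (0.367 and 0.392) and within 3 and 4 (0.544 and 0.599), so pairing by number is only partly told apart from a difference between these sets. Genes named were the 3 regulators, the listed pathway and marker genes with a probe set of their own, and the 3 genes most like each regulator. Genes and lists were chosen with earlier results of these data known.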

Additional observations from a re-analysis of the deposited data

Results flagged for a closer look

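The SLY1 difference of −1.35 (log2, GA4 minus water) in pair 3 lay far from those of the other 3 pairs, −0.50 to −0.34. Its gap to the nearest of them was 0.841 of the whole range, above the 95% critical value of Dixon's test for 4 values. Of 9 sets of 4 values examined for SLY1, SNE and SPY, 1 was past its limit, and chance gives about 1 in 20. Neither array of the pair was past the limit within its own treatment.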

How the results depend on the processing

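The SLY1 difference stayed negative and past no threshold in 24 of 24 alternatives (−0.84 to −0.42, limma adjusted p 0.202 to 1.00). Only quantile normalization could have turned the SLY1 sign, since the groups did not overlap, so this count is mostly no test of it. With all arrays kept, the blocks, other filters, a floor of 16 and a fit without trend could not move the mean differences. This held for SLY1, SNE and SPY, so these settings do not test the signs. SNE kept its sign in 20 of 23. It was 0.18 without GA4 replicate 3, 0.12 without pair 3 in the fit with the block and 0.24 on replicates 1 and 2 alone, ranging from −0.46 to 0.18 when 1 array was left out and from −0.58 to 0.12 when 1 pair was. The 40% filter removed SNE. SPY kept its sign in 22 of 24, with 0.011 without GA4 replicate 3 and 0.0026 without water replicate 1 (−0.12 to 0.011). The main differences of SNE and SPY, and those of the other sign, were smaller than their errors, so these signs carry no direction. Some SNE values with the main sign were larger than their errors, as without pair 1 (−0.58, SE 0.27 with the block). No SNE value passed limma's test (adjusted p = 0.679 without pair 1). The SNE to SPY comparison turned to 0.15 without pair 3 and to 0.29 on replicates 1 and 2 alone (−0.51 to 0.15 over pairs left out). SLY1 on replicates 3 and 4 against 1 and 2 passed after quantile normalization (0.51). The cause was not tested for any of these.

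The count of probe sets past the threshold was 2 and became 40 with the replicate block, 32 with the block on sets, 8 with array weights, 20 with quantile normalization and the block (chosen after seeing the data), 1 with no filter, 1 with the 40% filter, 1 on replicates 1 and 2 alone and 9 on replicates 3 and 4 alone. It was 1 without any 1 array, and 14, 8, 53 and 43 with the block without pairs 1 to 4. The block changed no call for SLY1, SNE or SPY (SLY1 −0.65, adjusted p = 0.212). No detection calls were used, which limits SNE most.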
